A study of Mus musculus with 6 samples.

Results

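The genes examined here encode the MLL and COMPASS complexes, which methylate lysine 4 of histone H3 (H3K4). The 9 members were chosen by name: Kmt2a, Kmt2b, Kmt2c and Kmt2d, Wdr5, Ash2l, Rbbp5 and Dpy30, and Men1. All 9 symbols were present in each of the 6 deposited lists of 16668 genes, no member symbol was absent, and 9 of 9 passed the filter (a mean RPKM of 0.5 or more) that left 11538 genes for testing. RPKM divides the reads of a gene by its exon length and by the depth of the library, so it can be compared between genes.

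The RNA came from E14 mouse embryonic stem (mES) cells of the 129/Ola strain, grown without feeder cells in 2i medium with LIF. The labels give 3 groups of 2 libraries, control, Ring1B-KD and Dzip3-KD, where KD is knockdown. The genotype of the labelled controls is wild type. According to the methods, knockdown was by transient transfection of siRNA and the controls received a control siRNA, so each group is a transfected population and no clone was selected. Ring1B (encoded by Rnf2) and Dzip3 are both ubiquitin ligases for histone H2A. The study calls the duplicates biological. Neither it nor the labels say whether they came from separate cultures or transfections, and the p-values measure only the spread between these libraries.

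The deposited name of each library holds a number from 1 to 6 and a condition word. Word and label disagreed in 4 of 6 libraries, so both are given throughout. Library 1 was named control and labelled control 1. Library 2 was named Ring1BKD and labelled control 2. Library 3 was named Dzip3KD and labelled Ring1B-KD 1. Library 4 was named control and labelled Ring1B-KD 2. Library 5 was named Ring1BKD and labelled Dzip3-KD 1. Library 6 was named Dzip3KD and labelled Dzip3-KD 2. The labels are the groups given in the sample titles, and the study does not say which of these namings its own comparisons followed. The words were compared within libraries 1 to 3 and within libraries 4 to 6.

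The depth recovered from the RPKM values was between 3015348 and 3583611 mapped reads per library, and the RPKM values summed to between 126356 and 140481. Of 6 marker genes of embryonic stem cells (Pou5f1, Sox2, Nanog, Esrrb, Zfp42 and Klf4), 6 were listed, and their summed level was 939 to 1246 RPKM. The summed level of the 5 primitive endoderm markers was 0.654 to 1.34 RPKM, that of the 4 of 5 trophectoderm markers listed was 9.55 to 15.4 RPKM, mostly Tfap2c, and that of the 3 of 5 fibroblast markers listed was 1.18 to 3.10 RPKM. Cdx2, a defining trophectoderm marker, was at 0 in libraries 4, 5 and 6 and at most 0.618 RPKM in the others. The other listed trophectoderm markers were detected in every library, Gata3 at 0.206 to 0.952 RPKM and Krt8 at 0.309 to 4.04 RPKM, highest in library 2. Libraries 1 to 3 resembled each other, as did libraries 4 to 6, with correlations of log2 values between 0.960 and 0.970 within libraries 1 to 3 and between 0.963 and 0.974 within libraries 4 to 6, against 0.940 to 0.957 across the sets.

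H3K4 methylation marks active and poised promoters and enhancers. In mammals it is placed by complexes that combine 1 catalytic subunit of the KMT2 or SETD1 family with a shared core of WDR5, RBBP5, ASH2L and DPY30, without which the catalytic subunits are weak enzymes. KMT2A and KMT2B assemble with menin and act mainly at promoters, whereas KMT2C and KMT2D assemble with UTX and PTIP and place monomethylation at enhancers. In embryonic stem cells, many promoters of developmental genes carry H3K4 methylation together with the Polycomb mark H3K27me3 and ubiquitylated H2A, the product of Ring1B.

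The transcription start regions of the most and least abundant members are shown because they are the ends of the order of levels described next. Both are RefSeq sequences on GRCm38.p6, running from 250 bases before the start to 50 bases after it and written 5′ to 3′ on the strand of the gene. Capitals mark GC boxes, searched as GGGCGG on both strands with overlapping matches allowed. The first lies at chr2:27514897-27515196 on the plus strand and the second at chr5:25498734-25499033 on the minus strand.
Wdr5: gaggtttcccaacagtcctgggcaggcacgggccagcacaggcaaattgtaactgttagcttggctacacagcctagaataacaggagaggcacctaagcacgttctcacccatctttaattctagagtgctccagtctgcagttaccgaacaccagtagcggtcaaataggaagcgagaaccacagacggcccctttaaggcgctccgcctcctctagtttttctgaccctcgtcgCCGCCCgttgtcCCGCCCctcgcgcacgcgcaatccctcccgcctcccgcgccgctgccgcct
Kmt2c: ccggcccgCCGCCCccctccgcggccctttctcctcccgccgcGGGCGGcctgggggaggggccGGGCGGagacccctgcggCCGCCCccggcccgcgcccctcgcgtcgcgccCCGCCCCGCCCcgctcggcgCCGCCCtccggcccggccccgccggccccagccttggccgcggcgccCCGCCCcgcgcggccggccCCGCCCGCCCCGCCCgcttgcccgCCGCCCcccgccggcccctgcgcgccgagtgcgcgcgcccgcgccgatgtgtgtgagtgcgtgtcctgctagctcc

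The Wdr5 window held 2 GC boxes and 22 CG dinucleotides at 59.0% GC, and the Kmt2c window held 12 GC boxes and 56 CG dinucleotides at 88.0% GC. The median of all 32851 windows of this length was 7 CG dinucleotides and 52.7% GC. RefSeq windows were matched for 7 of the 9 members (Kmt2a, Kmt2c, Kmt2d, Wdr5, Rbbp5, Dpy30 and Men1). These members have 12 windows, 4 of them of Dpy30 and 3 of Men1. A GC box was found in 8 of the 12 windows, against 35.7% of all windows, and every matched member but Rbbp5 had at least 1 such window, Dpy30 through 1 of its 4. A CCAAT motif was found in 4 of the 12 windows, belonging to Dpy30 and Men1, against 37.4% of all windows. The ETS motif CCGGAAG and the TATA motif TATAAA were found in 0 of the 12 windows, and in 8.86% and 13.6% of all windows. None of these motifs shares enough letters with another for one match to count as both. Several windows of Dpy30 and of Men1 overlap, since these genes have more than 1 annotated start. A match is a run of letters and says nothing of binding.

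The shared core subunits were the most abundant members and the methyltransferases the least. Wdr5, the WD40 protein of the core, which is also part of other chromatin complexes, averaged 56.8 ± 5.85 RPKM (SD, n = 6 libraries), and Kmt2c averaged 4.55 ± 0.458 RPKM. In between came Dpy30 at 35.4 ± 6.84, Ash2l at 29.0 ± 4.06, Rbbp5 at 19.8 ± 2.71, Men1 at 12.4 ± 1.14, Kmt2b at 9.90 ± 1.93, Kmt2d at 6.67 ± 1.02 and Kmt2a at 6.57 ± 0.685 RPKM. Wdr5 lay at percentile 98.3 of all listed genes by mean RPKM, and Kmt2c at percentile 64.7.

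Neighbours in this order were compared within libraries by an exact two-sided sign-flip permutation test of the log2 ratio, with 8 pairs compared. The smallest p that 6 libraries allow is 0.031, which becomes 0.042 after Benjamini-Hochberg adjustment over the 8 pairs. For 6 of the 8 pairs the higher gene was higher in 6 of 6 libraries, at this smallest p. The order was taken from the same libraries. These p-values therefore describe how steady it was between them and give no independent support for it. Dpy30 and Ash2l did not differ beyond their spread (exact permutation p = 0.188, adjusted p = 0.214), with Dpy30 higher in 5 of 6 libraries. Kmt2d and Kmt2a did not either (exact permutation p = 0.812, adjusted p = 0.812), with Kmt2d higher in 3 of 6 libraries. These last genes changed places when the median was used and when library 3 was left out.

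**Figure D1:**
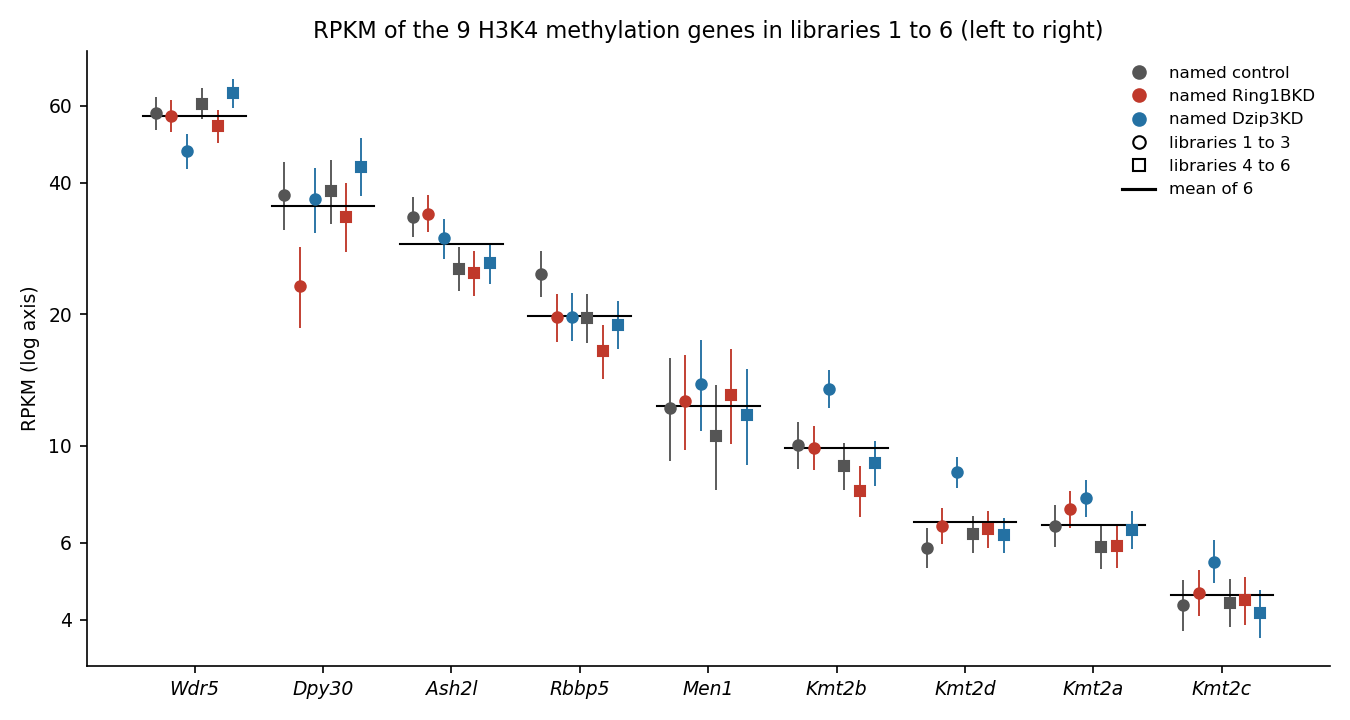
RPKM on a log axis for each member in libraries 1 to 6, from left to right, with exact Poisson 95% intervals of the recovered reads as bars and the mean of the 6 libraries as a line. Colour gives the condition word in the deposited name, circles libraries 1 to 3 and squares libraries 4 to 6. Wdr5 lies between 47.2 and 64.2 RPKM and Kmt2c between 4.13 and 5.43 RPKM. The methyltransferases are highest in library 3, and Dpy30 is lowest in library 2.

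The bars in the plot of levels cover counting error only. They could be too narrow even for that, because reads without molecular identifiers need not be independent molecules. The counts behind the methyltransferases were 218 to 581 reads per library, those behind Wdr5 462 to 667, those behind Ash2l 285 to 409 and those behind Rbbp5 195 to 271. Dpy30, the shortest member with a recovered exon length of 1108 bases, had 88 to 173 reads. Men1 had 53 to 71 reads, on a recovered length of 1520 bases. That length is the smallest that gives whole reads. The nearest annotated transcript has 1851 bases and the longest 2975 bases, so the Men1 reads could be a multiple of these.

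Kmt2a (chr9:44611438-44689379 on mm9, minus strand, listed in GENCODE M1 under its older symbol Mll1) encodes a methyltransferase that maintains Hox gene expression. Its level was 6.56 RPKM in library 1, 7.15 in library 2, 7.57 in library 3, 5.85 in library 4, 5.88 in library 5 and 6.42 in library 6. The lowest of libraries 1 to 3 thus lay just above the highest of libraries 4 to 6. Kmt2b (chr7:31353877-31373745, minus strand, Wbp7) encodes the closest relative of KMT2A. It gave 10.05, 9.90, 13.5, 8.99, 7.87 and 9.11 RPKM in libraries 1 to 6, with library 3 far above the other 5 and the ranges of the library sets apart.

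Kmt2c (chr5:24777612-25004601, minus strand, Mll3) gave 4.32, 4.61, 5.43, 4.37, 4.42 and 4.13 RPKM in libraries 1 to 6. Libraries other than library 3 lay within 0.5 RPKM of each other. It overlaps 3 other annotated genes, RP23-171F16.1, RP23-171F16.2 and RP23-171F16.3, of which 2 lie on the opposite strand, and the counting is not stated to use strand, so its reads could include theirs. Kmt2d (chr15:98662100-98701614, minus strand, Mll2), the enhancer methyltransferase with the longest exons of the members at 19826 bases, gave 5.84, 6.56, 8.69, 6.27, 6.44 and 6.23 RPKM. All 4 methyltransferase genes were highest in library 3.

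Wdr5 (chr2:27370677-27392055, plus strand) gave 57.8, 56.9, 47.2, 60.7, 53.8 and 64.2 RPKM in libraries 1 to 6. It was lowest in library 3, where the methyltransferases were highest. Ash2l (chr8:26926663-26958166, minus strand), which encodes the core subunit that binds DPY30, gave 33.4, 34.0, 29.8, 25.5, 24.9 and 26.2 RPKM, and every value of libraries 1 to 3 exceeded every value of libraries 4 to 6. Rbbp5 (chr1:134373944-134402242, plus strand), which encodes the core subunit that contacts the catalytic domain together with ASH2L, gave 24.7, 19.7, 19.7, 19.6, 16.4 and 18.9 RPKM. Library 1 was highest and library 5 lowest, and the ranges of the sets were apart by less than 0.1 RPKM.

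Dpy30 (chr17:74698814-74723284, minus strand), which encodes the smallest core subunit, gave 37.4, 23.2, 36.6, 38.2, 33.4 and 43.6 RPKM in libraries 1 to 6. Library 2 stood below the other 5, and its Poisson 95% interval of 18.6 to 28.5 RPKM overlapped only that of library 5, which began at 27.7 RPKM. Men1 (chr19:6334979-6340891, plus strand), which encodes the scaffold that links KMT2A and KMT2B to chromatin, gave 12.2, 12.7, 13.8, 10.5, 13.1 and 11.7 RPKM. Its intervals all overlapped.

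The methyltransferase sum (Kmt2a to Kmt2d) was 26.8, 28.2, 35.2, 25.5, 24.6 and 25.9 RPKM in libraries 1 to 6. The core sum (Wdr5, Ash2l, Rbbp5 and Dpy30) was 153, 134, 133, 144, 129 and 153 RPKM. Core over methyltransferase was 5.73, 4.74, 3.79, 5.65, 5.22 and 5.90, so the core transcripts exceeded the enzymes in every library and by least in library 3.

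Library 3 held the highest value of 5 of the 9 members (the 4 methyltransferases and Men1) and the lowest value of 1, Wdr5. It held the highest value of 19.3% of all genes tested. Relative to the mean of each gene and the median gene of the library, on the log2 RPKM scale, the deviation in library 3 was 0.47 for Kmt2b, 0.39 for Kmt2d, 0.26 for Kmt2c, 0.21 for Kmt2a and -0.26 for Wdr5. Levels in library 3 varied with exon length and GC content. The 347 genes with over 8000 bases of exon had a median deviation of 0.09 there, against -0.06 to 0.01 in the other libraries. The 749 genes with over 58% GC had a median of 0.05, against -0.03 to 0.03 in the others. Genes with at most 42% GC had a median of -0.09 in library 3, against -0.05 in library 1 to 0.07 in library 5, so medians also varied with GC content outside library 3. Kmt2a, Kmt2b, Kmt2c and Kmt2d all have over 8000 bases of exon. Kmt2b and Kmt2d are also over 58% GC, at 59.1% and 58.4%, but Kmt2a and Kmt2c are not, at 50.6% and 46.4%. Among genes averaging at least 2 RPKM, Kmt2b lay at percentile 92.8 in library 3, Kmt2d at 89.1, Kmt2c at 79.5 and Kmt2a at 74.7. The part of length and GC content in these levels was not tested.

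**Figure D2:**
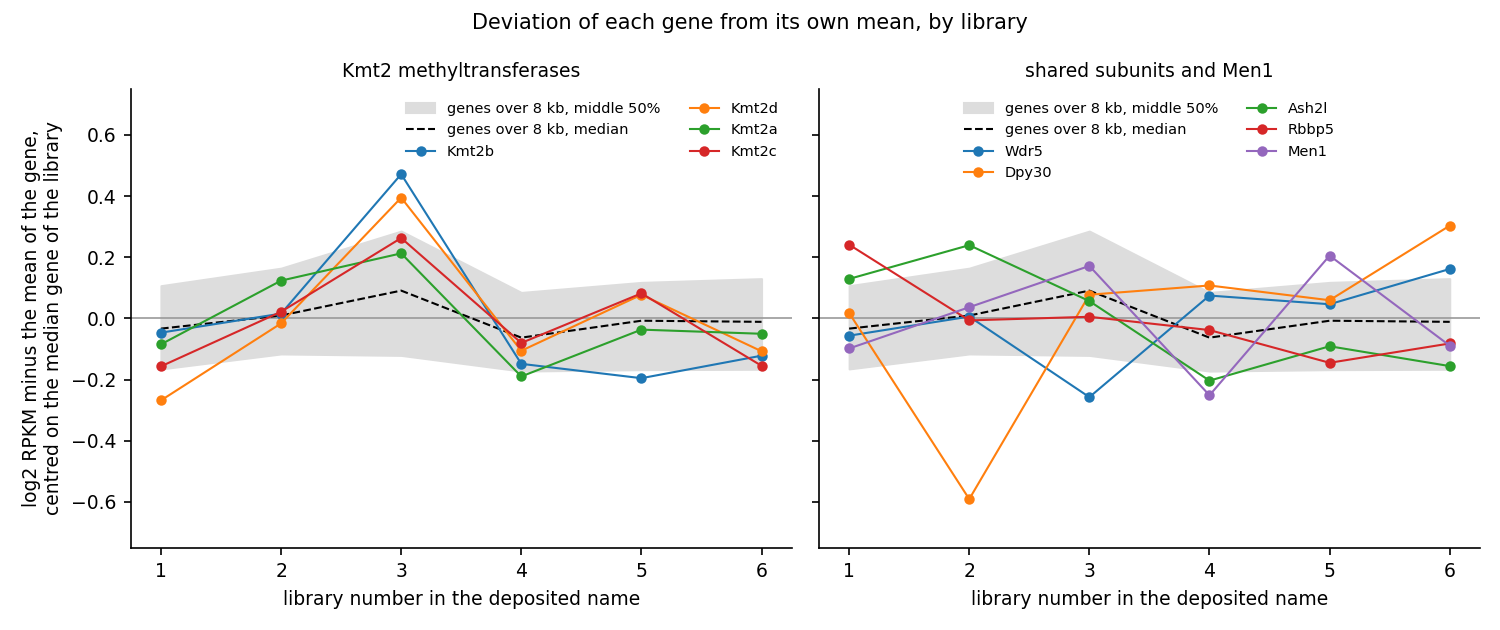
Deviation of each member from its own mean log2 RPKM, centred on the median gene of each library, for the methyltransferases (left) and for the core subunits and Men1 (right). The horizontal axis is the library number. The dashed line and the grey band are the median and the middle 50% of the 347 genes with over 8000 bases of exon. The methyltransferases peak in library 3, at 0.21 to 0.47, and Dpy30 lies at -0.59 in library 2.

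Dpy30 had the largest deviation of a member, -0.59 in library 2, at percentile 3.44 of the genes averaging at least 2 RPKM. It rested on 88 reads. Its next value was 0.30 in library 6.

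The library sets differed for some members. Ash2l averaged 32.4 ± 2.25 RPKM (SD, n = 3) in libraries 1 to 3 and 25.5 ± 0.652 RPKM in libraries 4 to 6. Kmt2b averaged 11.2 ± 2.05 and 8.65 ± 0.686 RPKM, Rbbp5 21.4 ± 2.91 and 18.3 ± 1.65 RPKM, and Kmt2a 7.09 ± 0.510 and 6.05 ± 0.317 RPKM. These 4 of 9 members had all values of libraries 1 to 3 above all values of libraries 4 to 6, and 0 of 9 the reverse. Among all genes tested the shares were 15.5% and 13.1%. No label or method says what the sets are.

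Rnf2 and Dzip3, the targeted genes, did not both follow the labels. Rnf2 was 30.6, 20.4, 26.8, 28.8, 19.4 and 28.2 RPKM in libraries 1 to 6, so its lowest values were in libraries 2 and 5, both named Ring1BKD but labelled control 2 and Dzip3-KD 1. Dzip3 was 2.24, 2.68, 1.18, 1.89, 1.70 and 1.31 RPKM, on 23 to 53 reads, with its lowest values in libraries 3 and 6, both named Dzip3KD but labelled Ring1B-KD 1 and Dzip3-KD 2. In limma on log2(RPKM + 1), Rnf2 differed by 0.15 (SE 0.24, adjusted p = 0.965) between libraries labelled Ring1B-KD and control. It differed by -0.55 (SE 0.13, limma adjusted p = 0.232) between libraries named Ring1BKD and control, being lower in both sets. Dzip3 differed by -0.47 (SE 0.24, adjusted p = 0.458) for the label Dzip3-KD and by -0.45 (SE 0.21, adjusted p = 0.754) for the name Dzip3KD, again lower in both sets. It differed by as much, -0.46 (SE 0.24, limma adjusted p = 0.902), for the label Ring1B-KD, so Dzip3 was not lower for its own label alone. Each direction drawn from a label below therefore concerns the libraries so labelled.

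The first comparison by label set the libraries labelled Ring1B-KD, in which Rnf2 was at 27.8 ± 1.38 RPKM (SD, n = 2), against those labelled control, in which it was at 25.5 ± 7.17 RPKM, so no lower Rnf2 level separates them. Among the libraries labelled Ring1B-KD, 0 of 9 members passed an adjusted p of 0.05 in limma against the libraries labelled control. The background was 0% of all genes by adjusted p and 5.1% by unadjusted p, and 0 members passed the latter. The largest member values were 0.34 (SE 0.24, 95% interval -0.21 to 0.88, adjusted p = 0.910) for Dpy30 and -0.28 (SE 0.17, -0.66 to 0.10, adjusted p = 0.904) for Ash2l, as differences in log2(RPKM + 1). Ash2l was at 27.6 ± 3.10 RPKM (SD, n = 2) in these libraries and 33.7 ± 0.437 RPKM in the controls. It was the only member whose groups did not overlap, against 33.7% of all genes. The median member difference was -0.03, and that of all genes -0.02.

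In bulk RNA, fewer cells of a type and less RNA per cell cannot be told apart. The Dpy30 value turned on library 2, which is a labelled control at 23.2 RPKM beside 37.4 RPKM in the other control. The methyltransferases labelled Ring1B-KD combined the high library 3 with library 4, so that Kmt2b was 13.5 and 8.99 RPKM around controls of 10.05 and 9.90 RPKM.

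For the label Dzip3-KD, again 0 of 9 members passed the adjusted threshold in limma, against 0% of all genes. Without library 3 or library 4, which are in neither group but share the estimate of the spread, 28 or 27 genes were called, none of them a member. Ash2l was at 25.5 ± 0.921 RPKM (SD, n = 2) against 33.7 ± 0.437 RPKM, a log2 difference of -0.39 (SE 0.17, limma unadjusted p = 0.046, adjusted p = 0.404), and was the only member under an unadjusted p of 0.05, as were 12.2% of all genes. The values of Kmt2a, Kmt2b, Ash2l and Rbbp5 in these libraries all lay below both controls, so 4 of 9 members did not overlap, all of them lower. Among all genes 50.7% did not overlap, 30.3% of all being lower. Rbbp5 was at 17.7 ± 1.74 against 22.2 ± 3.59 RPKM (-0.31, SE 0.18, adjusted p = 0.506). Leaving out a library moved this Rbbp5 difference between -0.47 without library 2 and -0.15 without library 1. The median member difference was -0.05 and that of all genes -0.07.

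These 4 members are the ones that were higher in libraries 1 to 3. The labelled controls are libraries 1 and 2 and the libraries labelled Dzip3-KD are 5 and 6, so label and set cannot be told apart in this comparison without the libraries of the third group. With the set as a block, where library 3 and library 4 alone tie the sets together, the Ash2l difference was -0.17 (limma adjusted p = 0.934), and Kmt2a and Kmt2b turned to 0.19 and 0.33. Rbbp5 stayed at -0.30 (limma adjusted p = 0.908). This block takes library 3, named Dzip3KD, and library 4, named control, as 1 group. Its values therefore include the difference of library 3 from the labelled controls. That difference was 0.13 for Kmt2a, 0.40 for Kmt2b, -0.17 for Ash2l and -0.15 for Rbbp5, so the turned signs rest on library 3 and give no direction for the label Dzip3-KD.

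By the name Ring1BKD, libraries 2 and 5 were compared with libraries 1 and 4, with the set in the model. Again 0 of 9 members passed an adjusted p of 0.05, as did 0.416% of all genes (48 genes, 48 of them higher). Without library 5 the count over all genes was 0. Dpy30 was at 28.3 ± 7.27 RPKM (SD, n = 2) against 37.8 ± 0.577 RPKM. Its log2 difference was -0.43 (SE 0.15, 95% interval -0.78 to -0.08, limma unadjusted p = 0.022, adjusted p = 0.480), made of -0.67 within libraries 1 to 3 and -0.19 within libraries 4 to 6. It was the only member under an unadjusted p of 0.05, and 8.31% of all genes were. Without library 2 the difference was -0.24, and without library 1 it was -0.26.

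Rbbp5 was lower in both sets, by -0.32 and -0.24 (together -0.28, SE 0.14, adjusted p = 0.621). Men1 was higher by 0.05 and 0.29, but did not pass (0.17, SE 0.15, adjusted p = 0.795). Values did not overlap for Kmt2c, Kmt2d and Men1 (higher) and for Wdr5 and Dpy30 (lower), which is 5 of 9 members against 30.7% of all genes. By direction, 9.11% of all genes were higher without overlap and 21.6% lower. Among these members the difference was 0.05 (SE 0.18) for Kmt2c, 0.09 (SE 0.18) for Kmt2d and -0.10 (SE 0.15) for Wdr5. The median was -0.00 for the members and -0.08 for all genes.

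By the name Dzip3KD, libraries 3 and 6 were compared with libraries 1 and 4. No member passed an adjusted p of 0.05 (0 of 9, and 0% of all genes) or an unadjusted one (0 of 9, and 6.52% of all genes). Without library 6, 5 genes were called, and without library 4, 3 genes, none of them a member. The groups overlapped for 9 of 9 members, and did not overlap for 26.4% of all genes. The largest values were 0.25 (SE 0.18, adjusted p = 0.816) for Kmt2d and 0.21 (SE 0.16, adjusted p = 0.830) for Kmt2b.

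Both of these turned on library 3. Within libraries 1 to 3, Kmt2d differed by 0.50 and Kmt2b by 0.39, and within libraries 4 to 6 by -0.01 and 0.02. Kmt2c differed by 0.27 in the first set and -0.07 in the second, Wdr5 by -0.29 and 0.08, and Kmt2a by 0.18 and 0.11. Men1 was alike in both, at 0.17 and 0.14. The median was 0.10 for the members and -0.03 for all genes. The comparisons share control libraries within each naming, so their values are not independent.

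**Figure D3:**
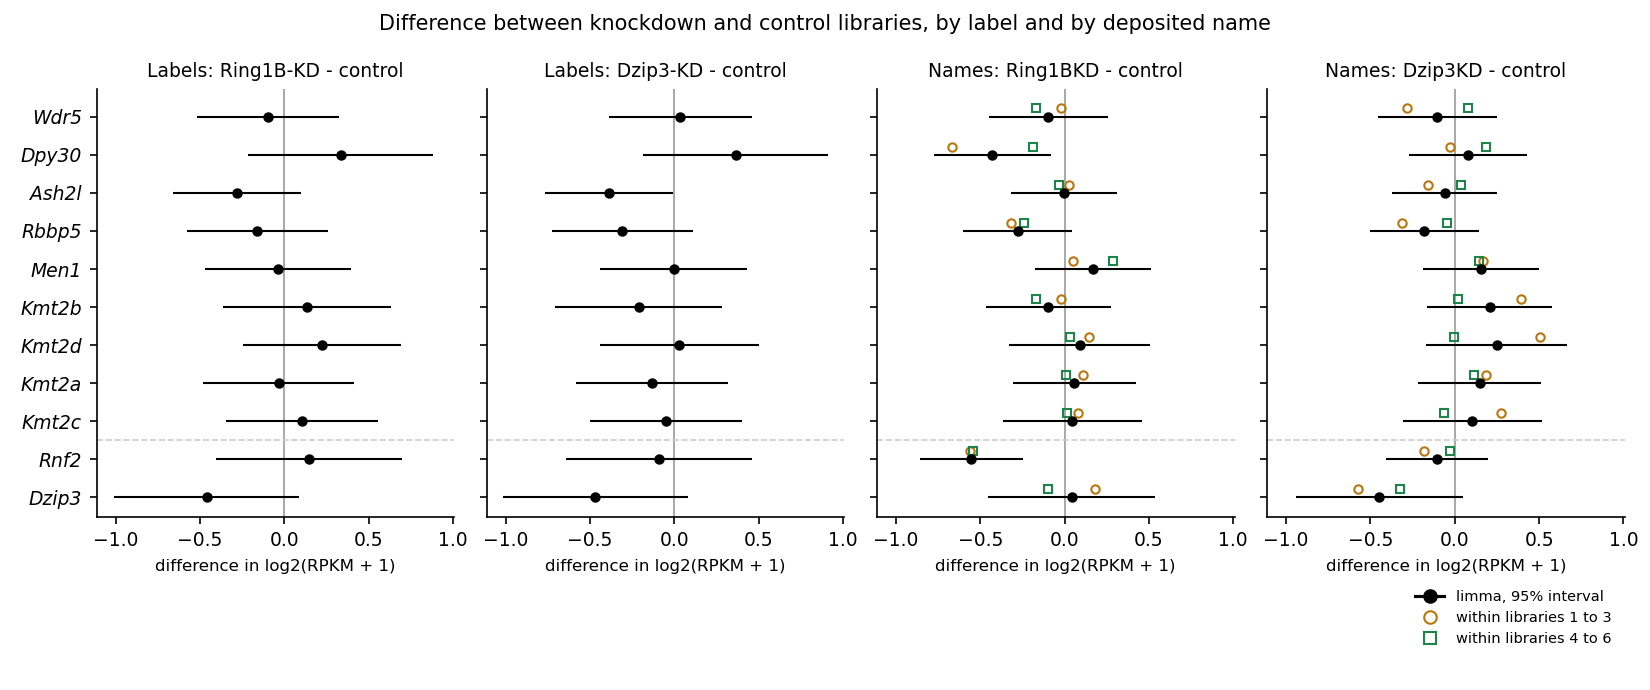
Difference in log2(RPKM + 1) between knockdown and control libraries for the 9 members and, below the dashed line, the targeted genes Rnf2 and Dzip3, by label (left panels) and by deposited name (right panels). Black points and bars are limma estimates with 95% intervals, and open symbols in the right panels are the differences within libraries 1 to 3 and within libraries 4 to 6. Member intervals exclude 0 for Ash2l under the label Dzip3-KD and for Dpy30 under the name Ring1BKD. Neither passed adjustment over all genes.

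The intervals limit what could be seen. Across the 4 comparisons the 95% interval of Ash2l reached at most 0.77 on the log2 scale below the controls, and that of Wdr5 at most 0.52 below them. The intervals of Dpy30 reached furthest of the members, to -0.78 for the name Ring1BKD and to 0.91 for the label Dzip3-KD. These bounds are ends of the intervals at this confidence, and say nothing of the smallest difference that could be detected.

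The rest of the H3K4 machinery was read from lists of other COMPASS subunits (13 genes), H3K4 demethylases (5 genes) and H3K4 methyltransferases outside COMPASS (4 genes). All symbols were listed. Prdm9, the meiotic methyltransferase, was below the filter at 0.161 to 0.787 RPKM, and 3 of 4 in its list were tested. In all 4 comparisons 0 genes of each list passed an adjusted p of 0.05.

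Among other COMPASS subunits, 11 of 13 were lower for the label Dzip3-KD, with a median of -0.19, and 8 had values below both controls. Among all genes 57.5% were lower, the median was -0.07 and 30.3% had values below both controls. The largest difference was that of Ncoa6, a coactivator subunit of the KMT2C and KMT2D complexes. It gave 9.99, 8.99, 12.1, 5.86, 4.90 and 5.48 RPKM in libraries 1 to 6, high in the first set and low in the second. Its label Dzip3-KD difference was -0.76 (SE 0.29, limma unadjusted p = 0.028, adjusted p = 0.375). For the label Ring1B-KD, 8 of 13 were lower, as were 52.8% of all genes, and the largest was Bod1 at -0.36 (SE 0.18, adjusted p = 0.902).

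By name, 11 of 13 were lower for Ring1BKD, with a median of -0.11, as were 65.1% of all genes, with a median of -0.08. The largest was Pagr1a, another subunit of the KMT2C and KMT2D complexes, at -0.38 (SE 0.14, limma unadjusted p = 0.022, adjusted p = 0.480). It gave 21.1, 15.9, 22.5, 18.6, 14.1 and 18.4 RPKM, lowest in libraries 2 and 5. For Dzip3KD, 10 of 13 were higher, as were 44.5% of all genes, and the largest was Setd1b, a methyltransferase of the SET1 complex, at 0.24 (SE 0.20, adjusted p = 0.846). Of the 13 genes, 7 were highest in library 3 (Setd1a, Setd1b, Hcfc1, Ncoa6, Paxip1, Pagr1a and Bod1l), as were 19.3% of all genes tested.

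The demethylases remove H3K4 methylation. Kdm5b was the most abundant at 27.8 ± 0.868 RPKM (SD, n = 6), with library values from 26.7 to 29.0 RPKM. Of the 5 genes, 0 were highest in library 3, against 19.3% of all genes tested, so with 5 genes this count says little. The largest differences were -0.30 for Kdm1a (label Ring1B-KD, adjusted p = 0.904), -0.25 for Kdm5c (label Dzip3-KD, adjusted p = 0.584), 0.25 for Kdm1b (name Ring1BKD, adjusted p = 0.759) and -0.31 for Kdm5a (name Dzip3KD, adjusted p = 0.774), all from limma. For methyltransferases outside COMPASS they were -0.33 and -0.09 for Smyd3 by label (adjusted p = 0.921 and 0.892), 0.30 for Setd7 (name Ring1BKD, adjusted p = 0.770) and 0.20 for Smyd3 (name Dzip3KD, adjusted p = 0.902). Smyd3 averaged 1.74 ± 0.443 RPKM and Setd7 1.77 ± 0.432 RPKM over the 6 libraries.

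Across the 6 libraries, the member genes did not vary as one group. Pearson correlations of log2(RPKM + 1) between pairs, given as a description over 6 libraries that include library 3, ran from 0.68 to 0.95 among the methyltransferases. Wdr5 ran opposite to Kmt2c at -0.92, and Dpy30 ran opposite to Ash2l at -0.55. Of 3061 other genes averaging 10 RPKM or more, those closest to the mean standardized profile of the members were Msn at r = 0.999, Acin1 at r = 0.996 and Aim2 at r = 0.992. That profile was highest in library 3 at 0.80 and lowest in library 5 at -0.56. Aim2 averaged 13.1 ± 4.42 RPKM, Acin1 19.0 ± 1.76 RPKM and Msn 31.9 ± 12.4 RPKM over the 6 libraries. With so many genes searched over so few libraries, values this high say little of any 1 gene.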

How the data were processed

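Whole-transcriptome sequencing was performed on 6 libraries of E14 mES cells. The authors deposited RPKM values per library, made from stranded mRNA libraries sequenced on a MiSeq, aligned to mm9 with the Illumina Analysis Pipeline and restricted to reads mapped uniquely to a gene. The annotation and software versions are not given in the sources used here. Groups followed the sample labels, and the word in each deposited name was compared separately, with the library set (numbers 1 to 3 and 4 to 6) as a block. The members and lists were chosen with earlier results of these data known.

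Differences of log2(RPKM + 1) were tested by limma (3.58.1, R 4.3.3) with a variance trend in genes averaging 0.5 RPKM or more, with Benjamini-Hochberg adjustment over all 11538 genes. The pseudocount of 1 understates the change of low genes. All 6 libraries entered each fit. Code was tested on simulated data. RPKM corrects for depth and length but not for RNA composition.

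Whole reads were recovered for 86.4% of the 16668 genes, as the smallest exon length from 100 to 20000 bases that made all 6 values whole within 0.03 reads. That tolerance widened with the read count, up to a fixed limit. The recovered depth was 3015348 to 3583611 mapped reads, and 3 reads on 2 kb correspond to 0.419 to 0.497 RPKM. Deviations and their percentiles used genes averaging at least 2 RPKM that were detected in every library and had a recovered exon length. GC content was that of the longest coding transcript (GENCODE M1). Coordinates are from GENCODE M1 on mm9, and promoter windows from RefSeq on GRCm38.p6.

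Named genes were the members, Rnf2 and Dzip3, list genes passing the adjusted threshold or else the largest difference per list and comparison, and the 3 genes of at least 10 RPKM most correlated with the mean member profile. Other genes named (markers, Kdm5b, Prdm9, and the subunits highest in library 3) were chosen after their values were seen. Alternatives were the pseudocount, the filter, scaling, moderation, blocks, each library left out and, added after seeing the data, limma voom on recovered reads and a crossed block.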

Additional observations from a re-analysis of the deposited data

How the results depend on the processing

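Of 504 alternative values of the 36 member differences, 198 repeat the estimate by construction (no filter, no moderation, a balanced block, or a library outside the comparison left out). Of the 306 that moved by more than 0.0001, 268 kept their direction and 38 changed sign. None of the 504 had an adjusted p under 0.05 (smallest 0.196). Precision is limited by 2 libraries per group and 53 to 667 recovered reads per member, fewest for Men1, whose reads could be a multiple.

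With the library set as a block, Kmt2a turned to 0.13 and Men1 to 0.14 for the label Ring1B-KD. By design that block leaves library 3 alone against the labelled controls, so these values equal those without library 4. For the label Dzip3-KD, Kmt2a turned to 0.19, Kmt2b to 0.33, Kmt2c to 0.21, Wdr5 to -0.32 and Men1 to 0.36. Those values include the same difference of library 3 from the labelled controls. Under 75th percentile scaling the values were 0.0172 for Kmt2c and 0.0734 for Men1 (label Dzip3-KD), and 0.0058 for Kmt2b, 0.0151 for Wdr5 and 0.11 for Ash2l (name Ring1BKD). Quantile normalization gave 0.0886 for Men1 and 0.11 for Ash2l, and limma voom 0.0135 for Kmt2c, 0.0653 for Men1 and 0.0873 for Ash2l, in the same comparisons. The cause of the changes under scaling, quantile normalization and voom was not tested.

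Leaving out each library in turn changed the sign of these, with ranges for the label Ring1B-KD Kmt2a -0.20 to 0.13, Kmt2b -0.14 to 0.40, Kmt2c -0.0242 to 0.23, Wdr5 -0.27 to 0.0817 and Men1 -0.22 to 0.14, for the label Dzip3-KD Kmt2d -0.043 to 0.10, Wdr5 -0.089 to 0.16 and Men1 -0.0757 to 0.0685, for the name Ring1BKD Kmt2b -0.23 to 0.0365, Kmt2c -0.0553 to 0.15, Kmt2d -0.0669 to 0.24, Wdr5 -0.26 to 0.0699 and Ash2l -0.0808 to 0.0748, and for the name Dzip3KD Kmt2c -0.0501 to 0.26, Wdr5 -0.32 to 0.12, Ash2l -0.17 to 0.0535 and Dpy30 -0.096 to 0.25.

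Genes called over the whole table moved more. For the label Dzip3-KD (0 called), leaving out a library gave 0 to 28, with 28 without library 3 and 27 without library 4. The replicate number as a replicate block gave 1 gene, and crossing it 0. Deviations of samples sharing a number had correlations of -0.04, -0.24 and 0.04. Labels and names disagree in 4 of 6 libraries, so these values cannot tell whether the numbers pair the libraries. For the label Ring1B-KD the count was 0 under every alternative run, with 589 genes at an unadjusted p under 0.05. For the name Ring1BKD (48 called), a pseudocount of 0.1 gave 21, limma voom 83, and no filter, no moderation and no set block 0 each. Leaving out a library gave 0 to 65, with 0 without library 5. For the name Dzip3KD (0 called), limma voom gave 1, and leaving out a library 0 to 5, with 5 without library 6 and 3 without library 4.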
